A study of Homo sapiens with 3 samples.

Results

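Solute carrier (SLC) genes with appreciable mRNA in HEK293 cells were described across 2 libraries of cell clones in which KANK1 had been edited and 1 control library. Members were the genes whose symbol begins with SLC and a digit and whose mean over the 3 libraries was at least 5 FPKM (a fragment count scaled by transcript length and by the size of the library). The glucose and lactate carriers SLC2A1, SLC2A3, SLC16A1 and SLC16A3 and the cystine and leucine transport genes SLC7A11, SLC3A2 and SLC7A5 were left out. The rule gave 147 members out of 394 SLC symbols and 26209 gene symbols in all. Of the 394, 242 lay below 5 FPKM on average and 69 were listed at 0 in every library. The members were thus chosen by their measured level, and levels are given as a description. SLC35D2 was named in the rule because it was higher in both clones, so its difference is a description too, with no test.

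The first clone, numbered 114, and the second, numbered 174, were partial KANK1-KO cells made with CRISPR/Cas9 from a transfected plasmid, and their treatment is labelled genome editing. The control was HEK293 with the genotype label control and no treatment. HEK293 is a line grown from human embryonic kidney, and all 3 libraries came from it. Each clone gave 1 library, so a value in a clone holds for that clone, and KANK1 status and clonal origin cannot be told apart. The title of the series asks about a link between reduced KANK1 dose and centrosome defects.

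SLC proteins move solutes across membranes without burning ATP themselves: they use gradients of sodium, protons or the solute, or exchange 1 solute for another. Families differ by place as well as by cargo, with SLC25 carriers in the mitochondrial inner membrane, SLC35 nucleotide sugar carriers in the Golgi and endoplasmic reticulum, SLC39 and SLC30 zinc carriers that bring zinc into and out of the cytosol, and SLC1, SLC7 and SLC38 carriers for amino acids. In kidney tubules many SLC proteins reclaim filtered solutes, a role of differentiated epithelium.

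Depth and identity were checked on the same tables. At an assumed fragment length of 200 bases, clone 114 held an estimated 16800000 fragments, clone 174 17000000 and the control 16400000. KANK1 was listed at 3.63 FPKM in clone 114 and 3.43 FPKM in clone 174, against 4.49 FPKM in the control (log2 change -0.28, SE 0.40, limma adjusted p = 1.00). Of 12 HEK293 reference genes 9 averaged at least 1 FPKM, and the 12 summed to 812, 810 and 1022 FPKM in clone 114, clone 174 and the control. Of mature kidney markers 2 of 10 reached that level, and AQP2 and CDH16 were listed at 0 in every library. Fibroblast, immune, endothelial and keratinocyte markers reached it for 1 of 6, 1 of 6, 0 of 6 and 2 of 6 genes.

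Sorted by what they carry, the 147 members fell into 33 mitochondrial carriers, 21 metal carriers, 19 for amino acids and peptides, 14 for inorganic ions and pH, 13 for nucleotide sugars and the sulfate donor PAPS, and 11 for nucleosides, vitamins and cofactors. There were also 9 of the SLC35E to SLC35G subfamilies, 7 for amines, choline and organic cations, 6 for sugars and polyols, 5 for carboxylates and organic anions, 3 for lipids and 1 outside these classes. The remaining 5 carry an SLC symbol but are no carriers: SLC2A4RG, SLC9A3R1, SLC9A3R2, SLC4A1AP and SLC7A6OS. Together the members summed to 3511 FPKM in clone 114 and 3608 FPKM in clone 174, against 4087 FPKM in the control. These sums are 0.758%, 0.732% and 0.771% of all FPKM in clone 114, clone 174 and the control. Mitochondrial carriers held 42.3% of that sum in clone 114 and 41.6% in clone 174, against 46.7% in the control, the largest share of any class in each library.

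**Figure D1:**
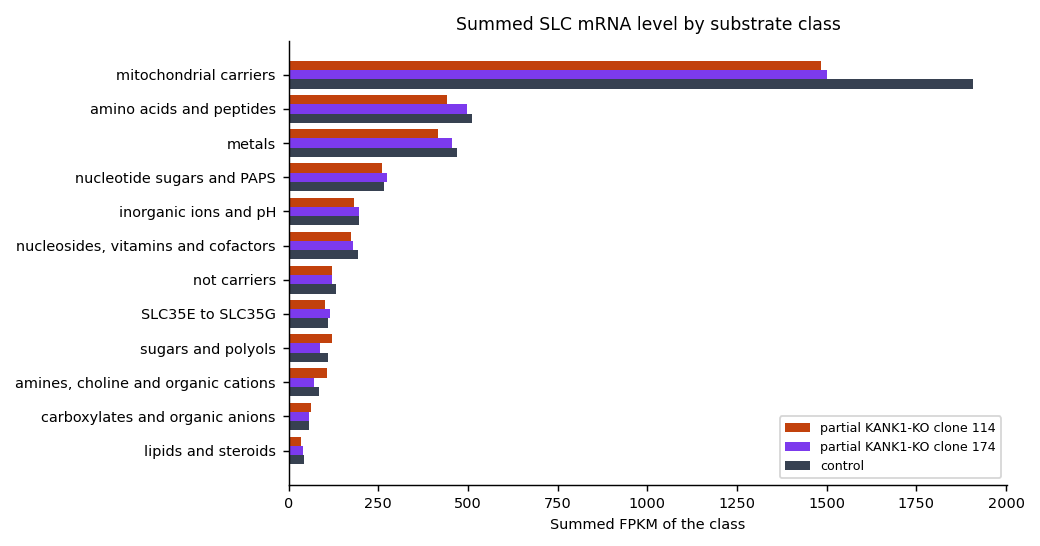
Summed FPKM of the SLC members of each substrate class with several members (horizontal axis), with 1 bar per library: clone 114 and clone 174 above the control. Mitochondrial carriers reach 1485 and 1501 FPKM in the clones and 1908 FPKM in the control, and no other class passes 511 FPKM in any library.

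Of the 147 members, 127 had at least 5 FPKM in every library. Another 12 lay below 5 FPKM in a single clone. A further 7 lay below 5 FPKM in the control. Of these, SLC35D2 was above that level in both clones, SLC13A4 in clone 174 alone, and SLC29A4, SLC35G1, SLC20A2, SLC46A3 and SLC37A1 in clone 114 alone. SLC1A1, a glutamate carrier gene, lay below 5 FPKM in both clones and was a member through the control. At the threshold, the lowest members were SLC1A1 with a mean of 5.09 FPKM and SLC9A7 with 5.15 FPKM, and just outside were SLC41A2 with 4.93 FPKM and SLC25A16 with 4.92 FPKM.

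Between the clones and the control, 30 members were higher in both clones, 52 were lower in both and 65 lay on opposite sides of the control. Among all 9311 genes at a mean of at least 5 FPKM, 23% were higher in both clones, 35.2% lower in both and 41.8% on opposite sides, so the members' 20.4%, 35.4% and 44.2% were near the background. The comparisons of the clones share the control library, and a low or high control value moves both. On the log2(FPKM + 1) scale, where the added 1 FPKM shrinks differences of weakly expressed genes, the median change of the members was -0.08 and that of all genes at that level -0.05. After scaling every library to an equal FPKM total, the median of all these genes moved to 0.09, 51 members were higher and 29 lower in both clones, and 39.9% and 19.4% of all genes were. A change of at least 1.5-fold on the log2(FPKM + 1) scale, without that scaling, was shared by 2 members upward, SLC35D2 and SLC16A14, where 0.859% of all genes passed. It was shared by 5 members downward, SLC29A2, SLC25A10, SLC25A1, SLC6A8 and SLC12A7, where 1.4% of all genes passed. SLC35D2 was left out of the test counts. Under the limma test over 12577 genes 0 of the other members were called, against 4 genes called higher (0.0318%) and 6 lower (0.0477%). Without adjustment, 4 of them had a limma p under 0.05, SLC16A14 higher and SLC25A10, SLC29A2 and SLC25A1 lower, beside 0.827% of all tested genes higher and 0.906% lower. Their unadjusted p ran from 0.0145 to 0.0443, and the adjusted p of each of these members was 1.00. The 12 members with the largest shared changes upward and the 12 with the largest downward kept their direction in both clones under each of 3 other scalings. These were equal FPKM totals, the median log2 ratio of all genes set to 0, and quantile normalization. The members were picked for the size of that change in the same values, so the kept direction is a description and no independent check. The first 2 scalings raised both clones relative to the control, so an upward change could not turn there.

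**Figure D2:**
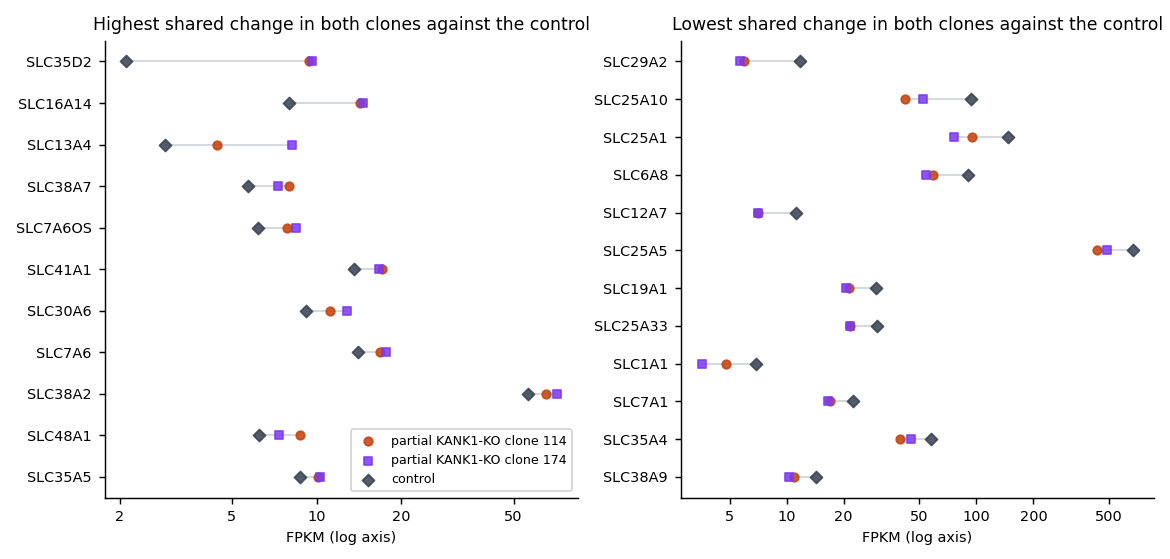
FPKM on a log axis for 11 of the 12 SLC genes with the largest shared change upward (left panel) and the 12 with the largest downward (right panel), ordered by the smaller of the 2 clones' changes; circles are clone 114, squares clone 174 and diamonds the control. SLC35D2 stands at 9.41 and 9.61 FPKM in the clones and 2.11 FPKM in the control, and SLC29A2 at 5.95 and 5.65 FPKM in the clones and 11.8 FPKM in the control.

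The promoters of 5 of these 7 genes are shown because these are the members whose change of 1.5-fold or more was shared by the clones. Each is the 250 bases before the transcription start on the gene's own strand, from RefSeq with the build GRCh38.p14, not the hg19 of the deposited files, and capitals mark matches to the motifs listed after them. They lie at chr9:96383712-96383961 (minus strand) for SLC35D2, chr2:230068925-230069174 (minus) for SLC16A14, chr5:1112064-1112313 (minus) for SLC12A7, chrX:153687676-153687925 (plus) for SLC6A8 and chr22:19178737-19178986 (minus) for SLC25A1.
SLC35D2: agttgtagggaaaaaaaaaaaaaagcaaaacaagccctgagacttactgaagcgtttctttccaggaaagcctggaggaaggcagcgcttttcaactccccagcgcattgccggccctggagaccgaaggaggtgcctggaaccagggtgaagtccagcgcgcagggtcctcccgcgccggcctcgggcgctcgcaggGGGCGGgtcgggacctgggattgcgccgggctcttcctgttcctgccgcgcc
SLC16A14: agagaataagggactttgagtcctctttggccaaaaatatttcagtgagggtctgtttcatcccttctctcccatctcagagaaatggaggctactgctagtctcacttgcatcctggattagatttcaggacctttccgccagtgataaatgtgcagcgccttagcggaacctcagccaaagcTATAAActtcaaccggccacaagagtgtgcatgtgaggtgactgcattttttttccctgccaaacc
SLC12A7: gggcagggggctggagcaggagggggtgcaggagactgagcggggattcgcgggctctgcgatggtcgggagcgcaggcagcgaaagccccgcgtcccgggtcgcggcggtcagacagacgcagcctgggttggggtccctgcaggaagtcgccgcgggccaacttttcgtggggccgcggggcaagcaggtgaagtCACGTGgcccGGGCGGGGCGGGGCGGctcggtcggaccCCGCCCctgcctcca
SLC6A8: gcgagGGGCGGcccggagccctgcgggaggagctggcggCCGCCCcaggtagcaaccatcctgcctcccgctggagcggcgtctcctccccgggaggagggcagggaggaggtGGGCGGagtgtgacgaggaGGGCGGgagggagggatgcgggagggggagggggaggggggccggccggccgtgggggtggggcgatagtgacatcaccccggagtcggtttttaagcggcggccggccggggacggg
SLC25A1: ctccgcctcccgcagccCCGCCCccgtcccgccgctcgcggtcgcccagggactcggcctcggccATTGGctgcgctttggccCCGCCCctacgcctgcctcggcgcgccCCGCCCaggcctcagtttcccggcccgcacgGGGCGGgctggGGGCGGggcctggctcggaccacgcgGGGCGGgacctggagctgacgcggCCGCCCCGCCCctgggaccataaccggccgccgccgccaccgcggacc
The motifs searched on both strands were the GC box GGGCGG, the CCAAT box CCAAT, the E-box CACGTG, the AP-1 site TGANTCA and the TATA box TATAAA, and overlapping matches were each counted. SLC25A1 had 8 GC boxes and 1 CCAAT box, SLC12A7 had 4 GC boxes and 1 E-box, SLC6A8 had 4 GC boxes and SLC35D2 had 1. SLC16A14 had none of the GC boxes and 1 TATA box, and at 46.8% it was lowest of the 5 in G and C, against 62.0% for SLC35D2 and 81.6% for SLC25A1. Of the 121 members with a promoter in the table, 73.6% held a GC box and 4.13% a TATA box. The shares were 70.8% and 4.43% among genes of at least 5 FPKM on average, and 42.3% and 11.1% among all 27305 promoters. An E-box was present in 10.7% of members, 9.43% of genes at that level and 6.49% of all promoters. A match is a description of these letters only.

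Nucleotide sugar and PAPS carriers, which feed sugar and sulfate donors to glycosylation in the Golgi and endoplasmic reticulum, had 7 of 13 members higher in both clones and 2 lower (53.8% and 15.4%, beside 23% and 35.2% of all genes at a mean of at least 5 FPKM), with a median log2 change of 0.10. Without SLC35D2, which was chosen for its higher level in both clones, 6 of 12 were higher and 2 lower, with a median of 0.09. With all 13, the counts were 9 and 2 at equal FPKM totals, and 7 and 2 with either other scaling. SLC35D2 is among the higher in each of these counts, and counts without it are not given. Of all genes of that level, 39.9% were higher and 19.4% lower at equal FPKM totals. Their shares were 28.2% and 29.2% with the median log2 ratio set to 0, and 26.6% and 29.3% after quantile normalization. SLC35D2, a Golgi carrier gene for UDP-N-acetylglucosamine and related donors, was listed at 9.41 FPKM in clone 114 and 9.61 FPKM in clone 174, against 2.11 FPKM in the control. Its log2(FPKM + 1) change was 1.74 in clone 114 and 1.77 in clone 174. The clones differed from each other by far less than either differed from the control. At the estimated depth these levels stand for about 105 to 225 fragments in clone 114, 109 to 234 in clone 174 and 23 to 49 in the control, depending on the transcript. Of the 9311 genes at a mean of at least 5 FPKM, 7 had a larger shared change, 0 of them members. SLC35D2 was named for being higher in both clones, so this rank is a description and no support.

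SLC35D1, its closest relative by name and an endoplasmic reticulum carrier gene for UDP-glucuronic acid, was listed at 7.56 and 8.01 FPKM in clones 114 and 174, against 7.81 FPKM in the control. The SLC35D1 control value lay between the clones. SLC35B2, the main PAPS carrier gene of the Golgi, was highest of the class with 49.5 and 58.8 FPKM in clones 114 and 174, against 48.7 FPKM in the control. SLC35A4, a member of the same subfamily as the CMP-sialic acid carrier, was lower in both clones at 39.4 and 45.3 FPKM, against 57.9 FPKM in the control (log2 change -0.44, SE 0.33, limma adjusted p = 1.00). For SLC35A4 the clones differed from each other by less than either did from the control. SLC35A2, the UDP-galactose carrier gene, was the other member lower in both clones, with 17.7 and 17.3 FPKM against 20.7 FPKM in the control. SLC35A5, of the same subfamily, was at 10.1 and 10.3 FPKM in clones 114 and 174, against 8.76 FPKM in the control. SLC35A2 and SLC35A5 thus lay less far from the control than SLC35A4. SLC35B1, which exchanges ATP and ADP across the endoplasmic reticulum membrane, had 37.0 FPKM in clone 114 and 46.9 FPKM in clone 174, against 44.8 FPKM in the control. SLC35C2, of the subfamily of the GDP-fucose carrier, had 27.4 FPKM in clone 114 and 27.8 FPKM in clone 174, against 25.7 FPKM in the control.

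**Figure D3:**
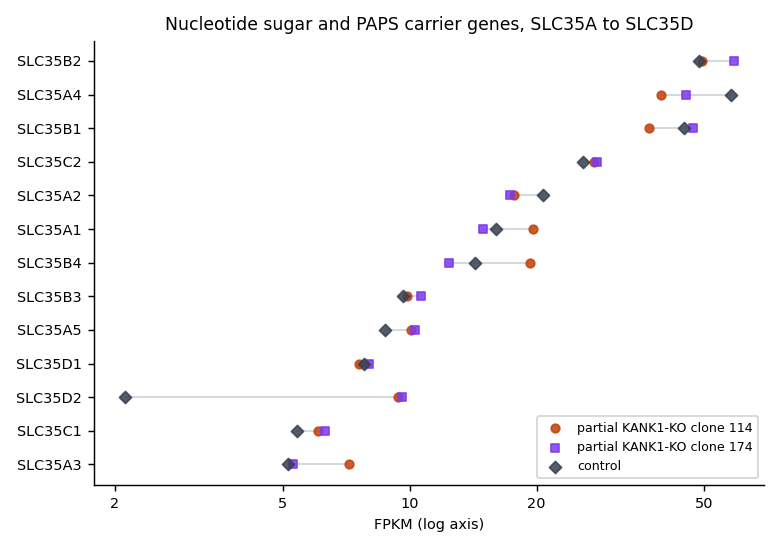
FPKM on a log axis for the 13 nucleotide sugar and PAPS carrier genes, from the highest mean at the top; circles are clone 114, squares clone 174 and diamonds the control. SLC35D2 is the row in which the control, at 2.11 FPKM, lies farthest from both clones, at 9.41 and 9.61 FPKM.

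On chromosome 9, where SLC35D2 lies, the genes next to it lay on both sides of the control. Of the 5 annotated genes on each side in RefSeq, 4 had a row in the tables. ZNF367, a zinc finger gene directly beside it, was at 6.80 and 7.23 FPKM in clones 114 and 174, against 7.50 FPKM in the control. HABP4 was at 9.10 and 10.4 FPKM in clones 114 and 174, against 11.3 FPKM in the control. Both genes lay below the control in both clones. CDC14B, a phosphatase gene, was at 10.3 and 11.7 FPKM in clones 114 and 174, against 8.77 FPKM in the control, and was higher in both clones, as SLC35D2 was. HSD17B3, a testosterone synthesis gene, was listed at 0 in all 3 libraries. The 10 members of chromosome 9 had median changes of -0.12 in clone 114 and 0.05 in clone 174, near the -0.06 and 0.07 of all chromosome 9 genes.

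Among the 5 genes whose 3 values most resembled those of SLC35D2 were the matrix glycoprotein gene SPARC, IAH1, the transcription factor gene FLI1 and the epithelial adhesion gene EPCAM, by the Euclidean distance of centred log2(FPKM + 1) over the 3 libraries. The distances ran from 0.030 for SPARC to 0.309 for EPCAM. SPARC was at 54.8 and 54.2 FPKM in clones 114 and 174, against 15.5 FPKM in the control. The nearest member, SLC16A14, was at a distance of 0.801. With 3 libraries, any gene alike in the clones and higher there by a similar amount is near.

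Mitochondrial carriers of the SLC25 family had 16 of 33 members lower in both clones, 2 higher and 15 on opposite sides, or 48.5% lower beside the background of 35.2%. The median log2 change of the class was -0.12. At equal FPKM totals, 10 were lower and 8 higher and the median was 0.02. Of all genes at a mean of at least 5 FPKM, 19.4% were then lower and 39.9% higher, with a median of 0.09. With the median log2 ratio set to 0, 14 were lower and 3 higher and the median was -0.07. All these genes then had 29.2% lower, 28.2% higher and a median of 0.003. After quantile normalization 14 were lower and 2 higher and the median was -0.12, beside 29.3%, 26.6% and -0.004 for all these genes. Fewer cells of a kind and less RNA per cell cannot be told apart in bulk RNA. SLC25A5, an ADP/ATP translocase gene and the highest member, was at 433 and 488 FPKM in clones 114 and 174, against 669 FPKM in the control (log2 change -0.54, SE 0.35, limma adjusted p = 1.00). SLC25A5 has processed pseudogenes and close paralogs, and how shared reads were assigned is not given in the sources used here. SLC25A3, the phosphate carrier gene, was at 255 and 284 FPKM in clones 114 and 174, against 270 FPKM in the control, which lay between them.

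Of the mitochondrial carriers, SLC25A10, SLC25A1, SLC25A5 and SLC25A33 were among the 12 members with the largest shared change downward. SLC25A10, the dicarboxylate carrier gene, was at 42.3 and 52.2 FPKM in clones 114 and 174, against 94.1 FPKM in the control (log2 change -0.99, SE 0.33, limma adjusted p = 1.00, unadjusted p = 0.0145). SLC25A1, which exports citrate to the cytosol, was at 95.1 and 76.5 FPKM in clones 114 and 174, against 147 FPKM in the control (log2 change -0.78, SE 0.34, limma adjusted p = 1.00, unadjusted p = 0.0433). SLC25A11, the oxoglutarate/malate carrier gene, was at 91.4 and 98.6 FPKM in clones 114 and 174, against 123 FPKM in the control. For each of these 3 genes both clones lay below the control. SLC25A33, a pyrimidine nucleotide carrier gene, was at 21.7 and 21.5 FPKM in clones 114 and 174, against 30.0 FPKM in the control. SLC25A39, needed for glutathione import into mitochondria, was at 145 and 129 FPKM in clones 114 and 174, against 175 FPKM in the control. SLC25A33 and SLC25A39 were thus below the control in both clones. The 2 genes of the class that were higher in both clones were SLC25A36, a pyrimidine nucleotide carrier gene, and SLC25A51, the NAD carrier gene. SLC25A36 had 25.7 FPKM in clone 114 and 17.2 FPKM in clone 174, against 16.7 FPKM in the control. SLC25A51 had 6.21 FPKM in clone 114 and 6.44 FPKM in clone 174, against 6.08 FPKM in the control. SLC25A6, whose gene lies in the region shared by X and Y, had 4.65 FPKM in clone 114 and 7.78 FPKM in clone 174, against 9.63 FPKM in the control. How reads of that region were assigned is not given in the sources used here.

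**Figure D4:**
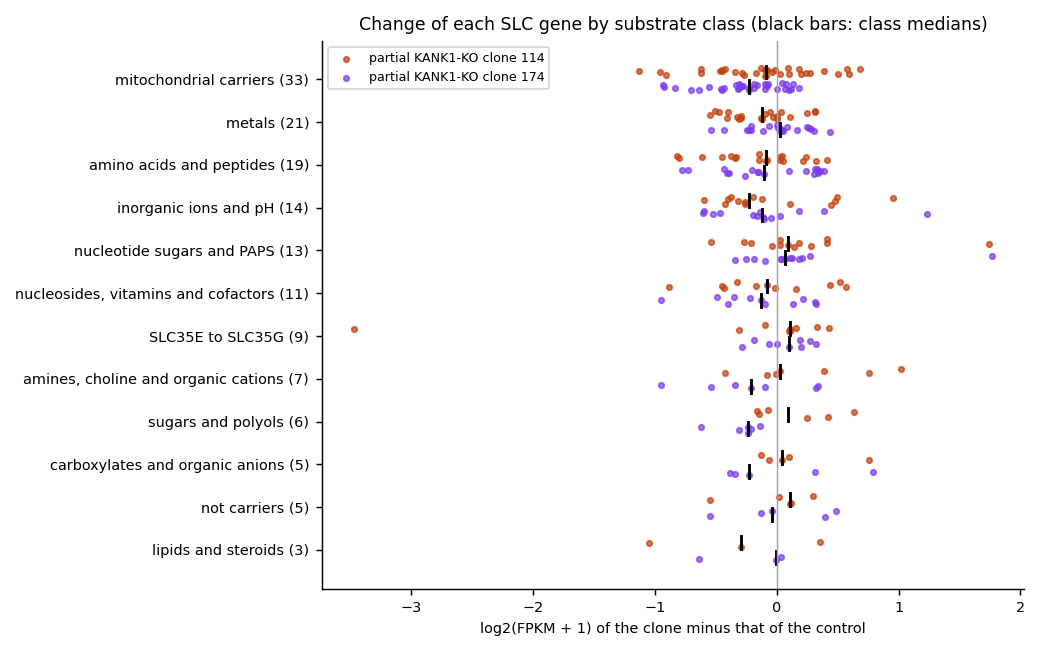
Difference in log2(FPKM + 1) between each clone and the control (horizontal axis) for every member of a class with several members, by substrate class with the number of genes in parentheses; each point is 1 gene in clone 114 (upper row) or clone 174 (lower row), and black bars are class medians. The mitochondrial medians lie at -0.09 and -0.23 and the nucleotide sugar medians at 0.09 and 0.06 in clones 114 and 174, and the point at -3.47 is SLC35F1 in clone 114.

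Median changes were lower at higher levels among all genes, and the members followed the same order. The 11 members at a mean of at least 50 FPKM had 7 lower and 2 higher in both clones (63.6% and 18.2%) with a median log2 change of -0.35. Of all 1804 genes at that level, 49.1% were lower and 11.4% higher, with a median of -0.15. The 52 members at 5 to 10 FPKM had 17 higher and 17 lower (32.7% each) with a median of 0.04. Of all 2365 genes at 5 to 10 FPKM, 31% were higher and 25.8% lower, with a median of 0.03. Of the 10 highest members, 6 were SLC25 genes. Whether level played a part in the class counts was not tested.

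Amino acid and peptide carriers had 5 of 19 members higher in both clones, 7 lower and 7 on opposite sides. Their shares were 26.3%, 36.8% and 36.8%, near the 23%, 35.2% and 41.8% of all genes with 5 FPKM or more on average. The median log2 change of the class was -0.12, and it was 0.03 at equal FPKM totals, -0.06 with the median ratio and -0.04 after quantile normalization. For all genes at that level these medians were -0.05, 0.09, 0.003 and -0.004 in the same order. SLC1A5, the glutamine carrier gene known as ASCT2, was highest of the class at 128 and 172 FPKM in clones 114 and 174, against 161 FPKM in the control. SLC6A8, the creatine carrier gene, was at 58.8 and 54.4 FPKM in clones 114 and 174, against 90.7 FPKM in the control (log2 change -0.67, SE 0.32, limma adjusted p = 1.00). Both clones had less SLC6A8 mRNA than the control, and they differed little from each other. SLC38A2, a sodium-coupled carrier gene for small neutral amino acids, was at 65.2 and 71.2 FPKM in clones 114 and 174, against 56.2 FPKM in the control (log2 change 0.27, SE 0.32, limma adjusted p = 1.00). SLC7A1, the main arginine and lysine importer gene, was at 17.0 and 16.6 FPKM in clones 114 and 174, against 22.3 FPKM in the control. SLC38A2 was thus higher and SLC7A1 lower in both clones. SLC7A6, which exchanges arginine for neutral amino acids, was at 16.8 and 17.7 FPKM in clones 114 and 174, against 14.02 FPKM in the control. SLC7A6OS, which lies on the opposite strand beside SLC7A6 and is no carrier, was at 7.83 and 8.48 FPKM in clones 114 and 174, against 6.19 FPKM in the control. The libraries were stranded, but the strand setting of the counting is not given in the sources used here, so reads of SLC7A6 and SLC7A6OS may not be separate.

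Lysosomal amino acid carriers lay on both sides of the control. SLC38A7, a lysosomal glutamine and asparagine carrier gene, was at 7.95 and 7.27 FPKM in clones 114 and 174, against 5.71 FPKM in the control. SLC38A9, the lysosomal arginine sensor and carrier gene, was at 11.0 and 10.2 FPKM in clones 114 and 174, against 14.2 FPKM in the control. SLC38A7 was thus higher and SLC38A9 lower in both clones. At the cell surface, SLC1A1 was at 4.79 and 3.59 FPKM in clones 114 and 174, against 6.90 FPKM in the control. Of 18 lysosomal and endosomal carrier genes in a longer list, 13 averaged at least 1 FPKM, with 3 higher and 6 lower in both clones (23.1% and 46.2%, beside 26.1% and 31.8% of all genes at that level).

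Metal carriers had 4 of 21 members higher in both clones, 6 lower and 11 on opposite sides. Their shares were 19%, 28.6% and 52.4%, beside 23%, 35.2% and 41.8% of all genes with 5 FPKM or more on average. The median log2 change of the class was -0.13, and it was 0.01, -0.08 and -0.10 under the same 3 scalings in that order. For all genes at that level these medians were -0.05, 0.09, 0.003 and -0.004. SLC39A1, a zinc importer gene, was the highest at 55.7 and 64.0 FPKM in clones 114 and 174, against 74.4 FPKM in the control. SLC41A1, a magnesium carrier gene, was at 17.0 and 16.7 FPKM in clones 114 and 174, against 13.5 FPKM in the control. SLC30A6, which loads zinc into the secretory pathway together with a partner, was at 11.1 and 12.8 FPKM in clones 114 and 174, against 9.18 FPKM in the control. SLC39A1 was thus lower, and SLC41A1 and SLC30A6 higher, in both clones. SLC30A1, the zinc exporter gene of the plasma membrane, had the clones on either side, with 7.32 FPKM in clone 114 and 13.6 FPKM in clone 174, against 11.2 FPKM in the control. SLC39A10, another zinc importer gene, was at 14.6 FPKM in clone 114 and 25.3 FPKM in clone 174, against 21.1 FPKM in the control. Both zinc genes were lower in clone 114 and higher in clone 174 than in the control. SLC39A6, a further zinc importer gene, had 33.8 FPKM in clone 114 and 48.4 FPKM in clone 174, against 47.2 FPKM in the control. SLC30A9, a zinc carrier gene of mitochondria, had 36.1 FPKM in clone 114 and 31.0 FPKM in clone 174, against 36.1 FPKM in the control.

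Carriers of inorganic ions had 2 of 14 members higher in both clones and 7 lower, or 14.3% and 50% beside 23% and 35.2% of all genes. The median log2 change of the class was -0.11, and it was 0.03, -0.06 and -0.08 under the same 3 scalings in that order. For all genes at a mean of at least 5 FPKM these medians were -0.05, 0.09, 0.003 and -0.004. SLC12A7, the potassium-chloride cotransporter gene known as KCC4, was at 7.09 FPKM in clone 114 and 7.09 FPKM in clone 174, against 11.3 FPKM in the control (log2 change -0.60, SE 0.35, limma adjusted p = 1.00). SLC12A4, its relative KCC1, was instead at 20.3 FPKM in clone 114 and 9.22 FPKM in clone 174, against 10.0 FPKM in the control. SLC12A4 was thus high in clone 114 alone. SLC13A4, a sodium-sulfate cotransporter gene, was at 4.42 and 8.16 FPKM in clones 114 and 174, against 2.89 FPKM in the control. It reached the level of the members through clone 174, so no test is given for it. SLC20A1, a sodium-phosphate cotransporter gene, was the highest of the class at 34.6 and 59.3 FPKM in clones 114 and 174, against 45.0 FPKM in the control. SLC4A2, a chloride-bicarbonate exchanger gene, was at 38.1 and 36.9 FPKM in clones 114 and 174, against 41.5 FPKM in the control.

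Nucleoside, vitamin and cofactor carriers had 1 of 11 members higher in both clones and 4 lower. Their shares were 9.09% and 36.4%, beside 23% and 35.2% of all genes with 5 FPKM or more on average. The median log2 change of the class was -0.10, and it was 0.04, -0.05 and -0.06 under the same 3 scalings in that order. For all genes at that level these medians were -0.05, 0.09, 0.003 and -0.004. SLC29A2, the equilibrative nucleoside carrier gene ENT2, had the largest shared change downward of the members, at 5.95 and 5.65 FPKM in clones 114 and 174, against 11.8 FPKM in the control (log2 change -0.92, SE 0.35, limma adjusted p = 1.00, unadjusted p = 0.0271). These levels stand for about 206 to 231, 199 to 223 and 399 to 447 fragments in clone 114, clone 174 and the control. SLC29A1, its relative ENT1, was at 34.0 and 50.8 FPKM in clones 114 and 174, against 46.3 FPKM in the control, and its clones lay on either side. SLC19A1, the reduced folate carrier gene, was lower in both clones at 21.3 and 20.7 FPKM, against 29.5 FPKM in the control (log2 change -0.47, SE 0.33, limma adjusted p = 1.00). SLC52A2, a riboflavin carrier gene, was at 28.4 and 24.0 FPKM in clones 114 and 174, against 32.0 FPKM in the control. SLC19A1 and SLC52A2 thus lay below the control in both clones. SLC48A1, the heme carrier gene of endosomes and lysosomes, was the member higher in both clones, at 8.77 and 7.37 FPKM against 6.23 FPKM in the control.

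The monocarboxylate family held the second largest shared change upward of the members. SLC16A14, an orphan of that family with no substrate named here, was at 14.2 and 14.6 FPKM in clones 114 and 174, against 8.01 FPKM in the control (log2 change 0.78, SE 0.34, limma adjusted p = 1.00, unadjusted p = 0.0443). Both clones lay above the control and within 1 FPKM of each other. Of the other carboxylate and organic anion carriers, SLC17A5, which exports sialic acid from lysosomes, was at 14.8 and 11.998 FPKM in clones 114 and 174, against 15.5 FPKM in the control.

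Among 6 sugar and polyol carriers, 0 were higher and 3 were lower in both clones. These were 0% and 50%, beside 23% and 35.2% of all genes at a mean of at least 5 FPKM. SLC37A4, the glucose 6-phosphate carrier gene of the endoplasmic reticulum, was at 33.3 and 31.3 FPKM in clones 114 and 174, against 37.0 FPKM in the control. SLC2A8, an intracellular glucose carrier gene, was at 10.6 and 10.8 FPKM in clones 114 and 174, against 12.02 FPKM in the control. At equal FPKM totals 0 of the 6 were lower in both clones, where 19.4% of all these genes were. With the median log2 ratio set to 0 and after quantile normalization 3 were, where 29.2% and 29.3% of all these genes were. Of the 5 genes that are no carriers, SLC9A3R1, a scaffold gene known as NHERF1, was at 32.4 and 43.6 FPKM in clones 114 and 174, against 47.9 FPKM in the control.

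Among the smaller classes, the SLC35E to SLC35G subfamilies, whose cargo is mostly unassigned, had 3 of 9 members higher in both clones, 1 lower and 5 on opposite sides. These were 33.3%, 11.1% and 55.6%, beside 23%, 35.2% and 41.8% of all genes at a mean of at least 5 FPKM. SLC35E1 was the highest of them, at 22.4 FPKM in clone 114 and 16.7 FPKM in clone 174, against 20.7 FPKM in the control. SLC35F2 had 15.01 FPKM in clone 114 and 22.9 FPKM in clone 174, against 18.8 FPKM in the control. In both genes the clones lay on opposite sides of the control. Carriers of amines, choline and organic cations had 1 of 7 higher, 2 lower and 4 on opposite sides (14.3%, 28.6% and 57.1%). SLC18B1, a vesicular polyamine carrier gene, was lower in both clones, at 21.9 FPKM in clone 114 and 19.95 FPKM in clone 174, against 23.2 FPKM in the control. SLC22A5, the carnitine carrier gene, had 10.6 FPKM in clone 114 and 13.5 FPKM in clone 174, against 14.5 FPKM in the control. SLC18B1 and SLC22A5 are the 2 of that class that were lower in both clones. At equal FPKM totals 2 of the 7 were higher and 0 lower, where 39.9% and 19.4% of all genes at that level were. After quantile normalization 0 were higher and 2 lower, where 26.6% and 29.3% of all these genes were. Of 5 carboxylate and organic anion carriers 2 were higher and 2 lower (40% each). Of 3 fatty acid carriers 0 were higher and 1, SLC27A2, was lower (0% and 33.3%). In clone 174 SLC27A2 was nearly level with the control, at 10.0 FPKM against 10.1 FPKM. Under each of the 3 other scalings 0 of these 3 carriers were lower in both clones. SLC27A4, the highest of the fatty acid carriers, had 20.8 FPKM in clone 114 and 26.4 FPKM in clone 174, against 25.8 FPKM in the control.

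The clones also differed from each other. In clone 114, 8 members were at least 1.5-fold higher than the control and 12 lower, where 4.76% and 6.11% of all genes at a mean of at least 5 FPKM were. In clone 174 the counts were 4 higher and 13 lower, where 3.65% and 7.03% of all such genes were. In 2 members, SLC44A2 and SLC37A3, both clones were past 1.5-fold on opposite sides. Clone 114 was at least 1.5-fold above clone 174 in 17 members and below it in 12, where 10.1% and 6.72% of all genes were. No test was possible for 1 library against 1.

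SLC35F1, a gene of the SLC35F subfamily, was nearly absent from clone 114, at 0.116 FPKM, while clone 174 had 9.88 FPKM and the control 11.4 FPKM. These stand for about 8 to 9, 721 to 784 and 797 to 867 fragments in clone 114, clone 174 and the control. Clone 174 and the control were near each other in SLC35F1 and clone 114 stood apart, with a level in clone 174 of 85.5 times that in clone 114. SLC27A2, an acyl-CoA synthetase gene for very long chain fatty acids, was also lower in clone 114, at 4.35 FPKM, with 10.0 FPKM in clone 174 and 10.1 FPKM in the control. SLC6A15, a neutral amino acid carrier gene, was at 7.85 FPKM in clone 114 and 17.2 FPKM in clone 174, against 14.5 FPKM in the control. For SLC27A2 clone 174 and the control were again nearly level. In the other direction, SLC44A2, a choline carrier gene, was at 32.3 FPKM in clone 114 and 7.49 FPKM in clone 174, against 15.4 FPKM in the control. The clones thus lay on opposite sides of the control in SLC44A2. SLC27A3, of the same family as SLC27A2, was at 9.19 FPKM in clone 114 and 4.11 FPKM in clone 174, against 6.97 FPKM in the control.

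Of the 8 members highest in clone 114 relative to clone 174, 5 lie on chromosome 7, as the RefSeq annotation places them. Of all 76 members higher in clone 114 than in clone 174, 7 lie there and 10 on chromosome 1, which has 15 members. Of the 8 members of chromosome 7, 7 were higher in clone 114, with median changes of 0.53 in clone 114 and -0.33 in clone 174. All 440 chromosome 7 genes of that level had a median of 0.37 in clone 114 and of -0.24 in clone 174, and 93.0% of them were higher in clone 114 than in clone 174, where 48.5% of all genes were. SLC25A13, an aspartate/glutamate carrier gene, was at 35.5 FPKM in clone 114 and 17.3 FPKM in clone 174, against 21.8 FPKM in the control. SLC37A3 was at 29.9 FPKM in clone 114 and 11.9 FPKM in clone 174, against 18.9 FPKM in the control. SLC25A40, SLC29A4, a monoamine carrier gene, and SLC12A9 were the other chromosome 7 genes among those 8 highest. SLC13A4 was the chromosome 7 member that was lower in clone 114. On chromosome 8, 7 of 7 members were higher in clone 114 than in clone 174, with medians of -0.05 in clone 114 and -0.17 in clone 174, and 83.2% of all its genes were. On chromosome 3, 7 of 10 members were, with medians of 0.05 in clone 114 and -0.15 in clone 174, and 88.7% of all its genes were. On chromosome 5, the 9 members had a median of -0.42 in clone 114 and of -0.14 in clone 174, beside -0.44 and -0.20 for all its genes, and SLC12A7, SLC35A4 and SLC38A9 are among them. The part of chromosome-wide differences in the members' values was not tested.

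**Figure D5:**
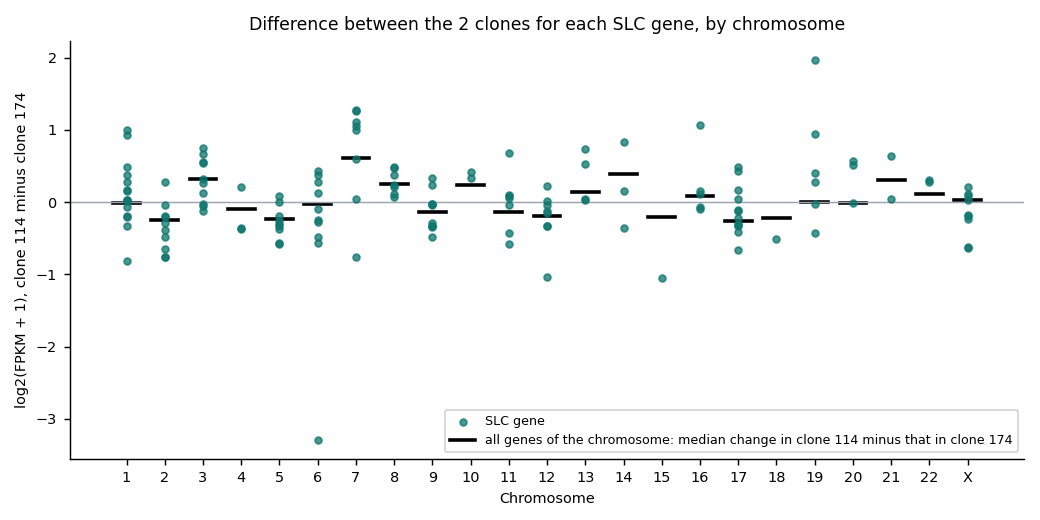
Difference in log2(FPKM + 1) between clone 114 and clone 174 for each member (vertical axis), by chromosome in RefSeq; points are SLC genes, and the black bar is the median change of all genes of the chromosome in clone 114 minus that in clone 174. On chromosome 7, 7 of 8 points lie above 0, on chromosome 8, 7 of 7 do, and the point near the bottom on chromosome 6 is SLC35F1.

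Genes that work with carriers were read from lists. Of 75 SLC superfamily genes with other symbols that had a row, such as mitochondrial pyruvate and organic anion carriers, 50 averaged at least 1 FPKM, with 13 higher and 22 lower in both clones, where 26.1% and 31.8% of all genes at that level were. ANKH, of this list and known for pyrophosphate and ATP release, was at 4.92 and 6.73 FPKM in clones 114 and 174, against 10.2 FPKM in the control (log2 change -0.73, SE 0.37, limma adjusted p = 1.00). Of 10 genes listed as carrier partners, 9 averaged at least 1 FPKM, with 1 higher and 6 lower in both clones. These were 11.1% and 66.7%, beside the same 26.1% and 31.8% of all genes. EMB, which encodes the monocarboxylate carrier partner embigin, was at 18.2 and 18.2 FPKM in clones 114 and 174, against 24.9 FPKM in the control. Of 40 pump genes whose ATPases make the gradients that carriers use, 26 averaged at least 1 FPKM, with 3 higher and 9 lower (11.5% and 34.6%). ATP6V0D1, a subunit gene of the proton pump, was at 71.1 and 65.1 FPKM in clones 114 and 174, against 48.2 FPKM in the control, and ATP6V0C, another, at 137 and 119 FPKM in clones 114 and 174, against 178 FPKM in the control.

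A list for the synthesis of nucleotide sugars and of glycosaminoglycan chains, such as chondroitin, had 12 genes higher and 15 lower in both clones out of 51 tested. Their 23.5% and 29.4% were near the 26.1% and 31.8% of all genes at that level. The list is wider than the cargo of SLC35D2 and holds PAPS synthesis and sulfation genes, such as PAPSS1 and NDST1. CHSY3, a chondroitin synthase gene, was at 2.30 and 2.27 FPKM in clones 114 and 174, against 3.82 FPKM in the control, and HAS3, a hyaluronan synthase gene, at 2.42 and 2.004 FPKM in clones 114 and 174, against 1.24 FPKM in the control. Of these 4 lists 0 genes passed the limma test, and 0 had an unadjusted p under 0.05. Kidney tubule carriers were mostly silent in all libraries: 3 of 30 averaged at least 1 FPKM and 12 were listed at 0 throughout. SLC47A1, an organic cation exporter gene, was at 5.83 and 7.47 FPKM in clones 114 and 174, against 5.69 FPKM in the control, and SLC7A8, a neutral amino acid carrier gene, at 5.65 and 7.55 FPKM in clones 114 and 174, against 5.54 FPKM in the control.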

How the data were processed

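Polyadenylated RNA of 3 HEK293 libraries was sequenced after a stranded preparation, per the labels' protocols. Per the submitters' processing notes, cutadapt 2.10, HISAT2 2.2.1 and Cuffdiff 2.2.1 were used with hg19; of their settings and annotation nothing is given in the sources used here. FPKM per gene symbol were deposited by the authors, scaled for transcript length and library size, without read counts. In each file of FPKM, 28 rows held a date in place of a symbol and were left out. The deposited log2 ratio tables were not used, as they hold few SLC genes.

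The 12577 genes that averaged 1 FPKM or more entered a limma 3.58.1 fit in R 4.3.3 on log2(FPKM + 1) values (eBayes with trend, two-sided, Benjamini-Hochberg at 0.05). Its 1 residual degree of freedom comes from how far the clones differ, with a prior of 8.80. The control is taken to vary as the clones do, and p-values cover no spread beyond that between these libraries. The labels do not state separate cultures. Each clone against the control was described without a test. On simulated data it recovered few of the smallest changes and most of the largest, and in each run its share of false calls exceeded the nominal rate. Fragments were estimated from the FPKM that 1 fragment adds and from GENCODE transcript lengths. An exact 0 may be a failed estimate. Names, chromosomes and promoters came from RefSeq.

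Members, gene lists and tests were chosen with earlier results of these data known. Named genes were SLC35D2, the 12 members with the largest shared change in each direction, the 8 with the largest difference between clones in each direction, the 10 highest, up to 4 highest per class, up to 3 per other list, the neighbours and nearest patterns of SLC35D2, and genes at the threshold. SLC35D1, SLC35A2, SLC25A6, SLC25A36, SLC25A51, SLC20A2, SLC46A3 and SLC37A1 were named after their values were seen. SLC4A1AP, SLC7A6OS and SLC13A4 were moved to their substrate class after the tables were read, from their known roles. Some genes that this rule names, and 1 promoter, are not reported here. Alternatives were other pseudocounts, filters and scalings, eBayes without a trend, leaving out a clone, and other levels for membership.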

Additional observations from a re-analysis of the deposited data

How the results depend on the processing

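With SLC35D2 left out of the counts, 0 members were called by limma under 8 alternative settings of the fit, and 2 to 5 had an unadjusted p under 0.05. With a pseudocount of 0.1 FPKM 0 genes were called lower, with no filter on low values 0 were called higher and 0 lower, at a mean of at least 5 FPKM 9 were called higher, and at equal FPKM totals 3 were called lower. That scaling also gave 51 members higher and 29 lower in both clones and a median change of 0.057. Of all genes at a mean of at least 5 FPKM it gave 39.9% higher and 19.4% lower, with a median of 0.093. The median of the members was -0.028 with the median log2 ratio set to 0. It was -0.13 for the 95 members at a mean of at least 10 FPKM, of which 13 were higher in both clones. The 48 of them at 10 to 20 FPKM had 8 higher and 15 lower (16.7% and 31.2%), beside 26.1% and 30.6% of all such genes. The 36 at 20 to 50 FPKM had 3 and 13 (8.33% and 36.1%), beside 20.5% and 38.9%. The 11 at 50 FPKM or more had 2 and 7 (18.2% and 63.6%), beside 11.4% and 49.1%. The change of SLC35D2 was 2.12 with a pseudocount of 0.1 FPKM, 1.03 with 5 FPKM, 1.87 at equal totals, 1.81 with the median ratio and 1.70 after quantile normalization. With either clone left out, 58 to 67 members were higher and 80 to 89 lower in the remaining clone. This count no longer needs both clones, and the share of all genes in it is not given. The causes of the other shifts were not tested. No paired analysis was possible because the control has 1 library and shares no replicate pairing with the clones. The control is the same library in every comparison, and the depth behind low FPKM, such as that of SLC35D2 in the control, rests on few fragments.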
